A study of Mus musculus with 17 samples.

Results

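The genes described here are 10 genes of the podosome and the actin ring, Src, Ptk2b, Gsn, Cttn, Vcl, Tln1, Pxn, Fermt3, Myo1d and Myo10. They were chosen by name, all 10 were found among the 41388 genes of the tables by their Ensembl identifiers, and all 10 passed the filter on low counts in every comparison. Podosomes are short-lived contacts between an osteoclast and its substrate, each with a core of branched actin surrounded by integrins and the proteins that tie integrins to actin. In a mature osteoclast on bone they merge into a belt or ring of actin that seals off the area where acid and proteases are released, and cells without an organised ring resorb little bone. The genes below encode kinases that signal at these contacts, proteins that link integrins to actin, proteins that build or cut actin filaments, and myosin motors.

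RNA was sequenced from bone marrow macrophages (BMMs) kept in M-CSF, the growth factor they need to survive, and from osteoclast precursors (labelled OC, called preOCs here) made from such cells by 24 h of M-CSF with RANKL, the cytokine that starts osteoclast formation, at 100 ng/ml. The study took the preOCs from male mice of 20 weeks. Bap1LysM mice carry floxed Bap1 alleles with Cre recombinase driven from the lysozyme M gene Lyz2, which acts in macrophages, neutrophils and their precursors, and Bap1flox mice carry the same floxed alleles without Cre. There were 3 BMM libraries of each genotype, 6 Bap1flox preOC libraries and 5 Bap1LysM preOC libraries, and the sequenced RNA was selected by its poly-A tail. The names of the deposited files differ in form between replicates 1 to 3 and replicates 4 to 6, while the labels give no batch, and only the former include BMMs, so the response to RANKL was measured in replicates 1 to 3 and the preOC genotypes were also compared within each of these library sets. The study calls the preOC libraries biologically independent, and nothing says so of the BMM libraries, so p-values measure the spread between these libraries, which may be technical.

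Counts per library ranged from 37967542 to 61369441. Bap1 itself was at 70.8 to 88.2 normalised CPM (counts scaled to the size of the library) in Bap1flox preOCs and 58.8 to 81.9 in Bap1LysM preOCs, but its count covers the whole gene and does not check the deletion. Lyz2, which Cre interrupts, was at 0.1456% to 0.4357% of the Bap1flox mean of the same stage in 6 Bap1LysM libraries, at 42.79% in the library labelled Bap1LysM BMM 1 and at 75.07% in the library labelled Bap1LysM OC 1. The study describes Bap1LysM mice with a single copy of Cre, which would leave 1 Lyz2 allele intact. By that description the 6 libraries with almost no Lyz2 depart from the stated genotype, and 42.79% and 75.07% are closer to it. Lyz2 thus splits the Bap1LysM libraries, the sources used here do not say why, and the Cre genotype of either part is uncertain. Bap1LysM means and spreads carry that doubt. For the 10 genes, values without 1 or both of the Bap1LysM libraries numbered 1 are given. These cover the RANKL comparison of Bap1LysM cells and the preOC genotypes. They show dependence on these libraries and do not correct for genotype. Summed over 13 osteoclast markers, preOC libraries had 7696 to 20306 CPM against 1184 to 1462 CPM in BMMs, and the lowest preOC sums were those of the library labelled Bap1LysM OC 1 (7696 CPM) and of Bap1flox OC 1 (8876 CPM). The 12 macrophage markers summed to 9317 to 12475 CPM in BMMs and 4212 to 5850 CPM in preOCs, so both kinds of culture carried the markers of their label. In bulk RNA, fewer cells of a type and less RNA per cell cannot be told apart.

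In RPKM, which scales the deposited count by library size and gene length and so allows genes to be compared, the 10 genes differed widely in level. In Bap1flox BMMs the highest were Gsn (248.6 ± 9.17 RPKM, SD, n = 3), which encodes gelsolin, a calcium-dependent actin-severing and capping protein, and Fermt3 (238 ± 8.98), which encodes kindlin-3, an integrin activator of blood cells. Their ranges overlapped, and Tln1, the gene of talin, which binds integrin tails and actin, followed at 115 ± 2.25. Ptk2b (35.6 ± 6.19), which encodes the kinase Pyk2, and Pxn (33.9 ± 2.64), which encodes the adaptor paxillin, were next and overlapped. At the low end stood Vcl (vinculin, 9.74 ± 2.89), Cttn (cortactin, 7.46 ± 4.04), Src (4.69 ± 0.661), Myo10 (4.36 ± 1.11) and Myo1d (1.25 ± 0.381), where only Myo1d lay apart from its neighbours.

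The order was different in Bap1flox preOCs. Gsn (206 ± 37.3 RPKM, SD, n = 6), Fermt3 (185 ± 18.1) and Tln1 (121 ± 24.9) still led, but Src came next at 76.1 ± 16.9 RPKM, ahead of Pxn (52.2 ± 6.08), with a range that overlapped those of both Tln1 and Pxn. Ptk2b (29.7 ± 3.16), Myo10 (27.5 ± 3.35) and Myo1d (25.9 ± 7.61) followed, then Cttn (13.8 ± 3.67) and Vcl (12.3 ± 2.57), each overlapping its neighbour in this order. In Bap1LysM preOCs Fermt3 (198 ± 25.5 RPKM, SD, n = 5) stood above Gsn (133 ± 26.2), the reverse of the order of their means in Bap1flox preOCs, with ranges of 157 to 227 and 108 to 165 RPKM that overlapped. The remaining values there were 110 ± 28.1 for Tln1, 75.7 ± 29.7 for Src, 57.3 ± 11.8 for Pxn, 36.4 ± 11.4 for Ptk2b, 33.7 ± 9.57 for Myo1d, 22.2 ± 4.41 for Myo10, 21.6 ± 7.95 for Cttn and 9.31 ± 2.45 for Vcl, and every gene overlapped the next in order.

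RANKL raised 3 of the 10 genes strongly in Bap1flox cells, Src and the myosin genes Myo1d and Myo10. With Pxn, 4 of the 10 genes rose and 1 (Fermt3) fell at an adjusted p under 0.05 in edgeR. Over all 14106 genes tested, 56.7% passed the same threshold (28.7% higher and 28.0% lower), so the share of called genes is near the background. With the replicate number as a block 8 of the 10 genes passed, beside 59.9% of all genes. The ranges of BMM and preOC replicates 1 to 3 did not overlap for 7 of the 10 genes, beside 69.8% of all genes. The median log2 fold change of the 10 genes was 0.41, beside -0.03 over all genes tested. Values per library below are CPM normalised with TMM factors over all 17 libraries.

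**Figure D1:**
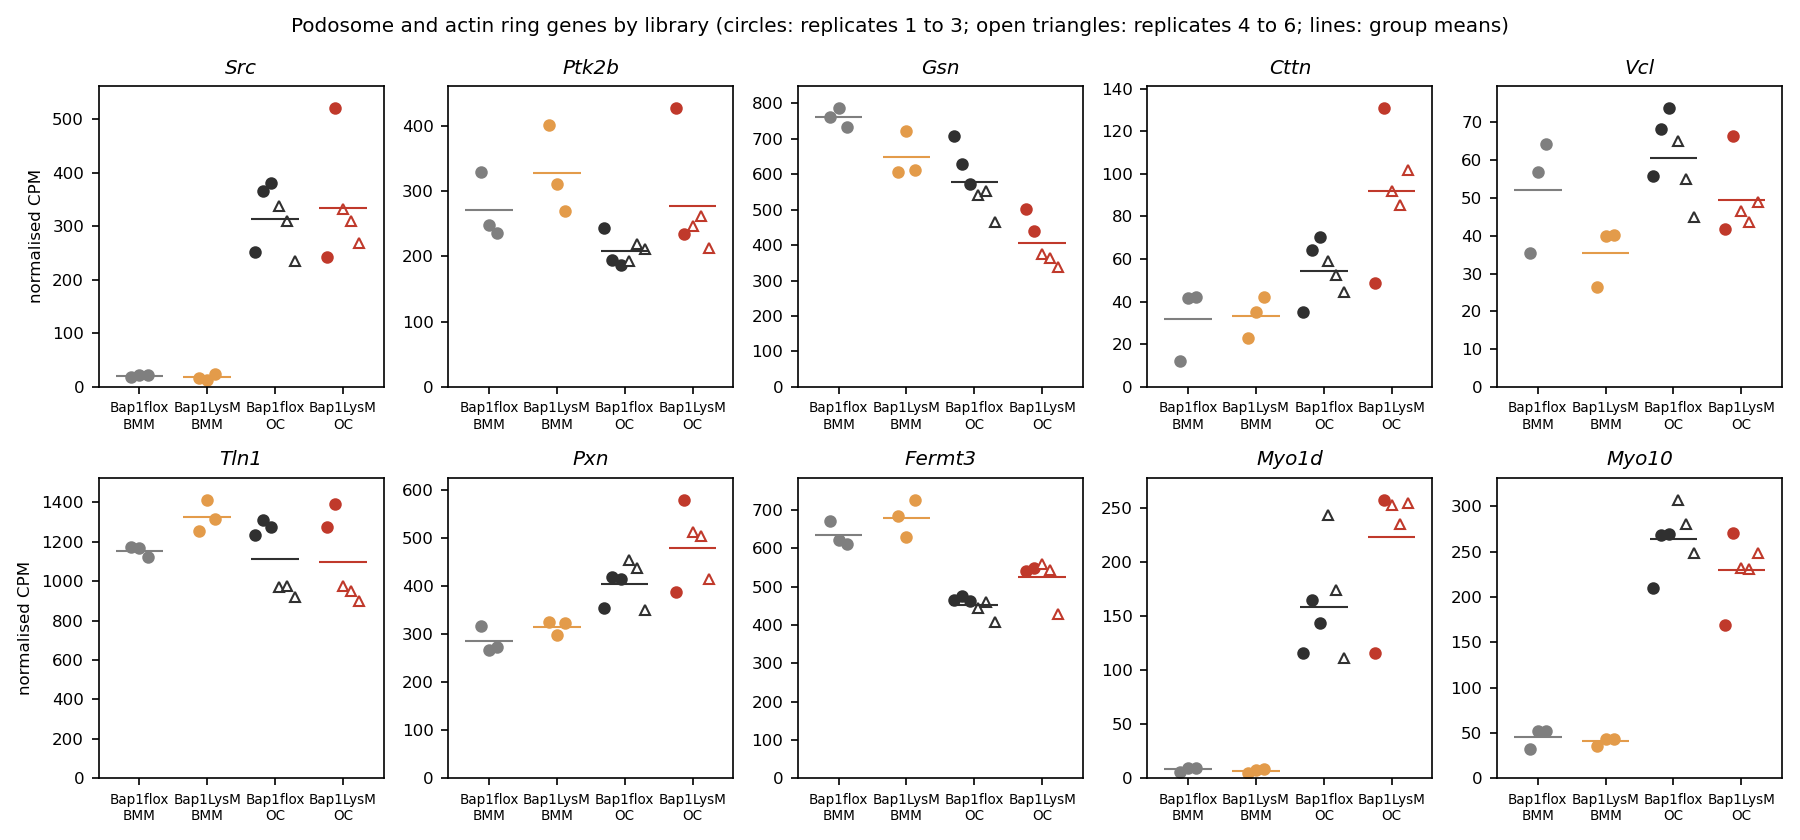
Normalised CPM (y axis, linear, from 0) of each gene in every library by group (x axis); circles are replicates 1 to 3, open triangles replicates 4 to 6 and lines group means. Src, Myo1d and Myo10 sit near the floor in all 6 BMM libraries and far above it in all 11 preOC libraries, and Gsn is lower in Bap1LysM than in most Bap1flox preOC libraries.

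Src encodes the tyrosine kinase whose loss leaves osteoclasts unable to resorb bone (ENSMUSG00000027646, GRCm38 chr2:157418444-157471862, plus strand). Its normalised CPM was 17.9, 22.9 and 22.3 in Bap1flox BMM replicates 1, 2 and 3, and 251, 365 and 381 in the preOC replicates with the same numbers. Every preOC library was over 10 times every BMM library, and the edgeR log2 fold change was 3.98 ± 0.35 (SE, adjusted p = 2.4e-05), a 15.8-fold rise. In Bap1LysM cells Src was at 15.9, 12.2 and 24.3 in BMMs and at 243 and 520 in the preOC libraries labelled 1 and 2. The 2 preOC libraries differed from each other, yet both lay above all BMMs, and the log2 fold change was 4.45 ± 0.37 (adjusted p = 5.1e-05 in edgeR). Without both Bap1LysM libraries numbered 1 it was 4.83.

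Myo1d, a membrane-binding class I myosin (ENSMUSG00000035441, GRCm38 chr11:80482126-80780025, minus strand), had, with Src, the largest rises of the 10 genes. The order of Myo1d and Src in Bap1flox cells was within their SE and turned without Bap1flox BMM 1 (3.87 for Myo1d and 3.88 for Src). In Bap1flox cells it went from 5.50, 9.63 and 9.79 normalised CPM in BMMs to 116, 165 and 144 in preOCs, a log2 fold change of 4.09 ± 0.37 (edgeR, adjusted p = 2.8e-05) and a 17.1-fold rise. In Bap1LysM cells BMMs had 4.58, 7.52 and 8.52 normalised CPM and the preOC libraries labelled 1 and 2 had 116 and 257, giving a log2 fold change of 4.76 ± 0.40 (edgeR, adjusted p = 5.2e-05). Without both Bap1LysM libraries numbered 1 the Myo1d value was 5.01, and without Bap1LysM OC 2 it was 4.08. The groups did not overlap in either genotype.

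Myo10 encodes a motor of filopodia and podosomes that binds integrins and microtubules (ENSMUSG00000022272, GRCm38 chr15:25622525-25813673, plus strand). Bap1flox BMMs had 32.6, 51.7 and 51.7 normalised CPM and preOCs 209, 268 and 270, a log2 fold change of 2.46 ± 0.23 (edgeR, adjusted p = 3.0e-05) and a 5.51-fold rise. In Bap1LysM cells the values were 35.6, 43.3 and 43.3 in BMMs and 169 and 270 in preOCs, a log2 fold change of 2.43 ± 0.24 (edgeR, adjusted p = 0.00012). It was 2.64 without both libraries numbered 1 and 2.05 without Bap1LysM OC 2. Src, Myo1d and Myo10 kept their call in all 11 fits that left out a single library, in both genotypes.

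Of the 10 genes, 6 had an entry among the RefSeq promoters (GRCm38.p6), namely Src, Gsn, Tln1, Vcl, Myo10 and Fermt3, with 9 start sites, and Ptk2b, Cttn, Pxn and Myo1d had none. The 250 bases before the start are shown for Src and for both starts of Myo10, since among the genes with an entry these rose most with RANKL, and for the Gsn start that lies inside the counted gene, since Gsn was the gene called between the preOC genotypes. Capitals mark matches to the motifs searched on both strands.
Src, chr2:157424043-157424292, plus strand: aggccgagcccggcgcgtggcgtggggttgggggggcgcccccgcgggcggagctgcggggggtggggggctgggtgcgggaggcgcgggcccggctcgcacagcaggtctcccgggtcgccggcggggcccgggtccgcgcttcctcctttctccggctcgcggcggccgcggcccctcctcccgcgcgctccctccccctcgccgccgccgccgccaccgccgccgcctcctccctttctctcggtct
Myo10, chr15:25622300-25622549, plus strand: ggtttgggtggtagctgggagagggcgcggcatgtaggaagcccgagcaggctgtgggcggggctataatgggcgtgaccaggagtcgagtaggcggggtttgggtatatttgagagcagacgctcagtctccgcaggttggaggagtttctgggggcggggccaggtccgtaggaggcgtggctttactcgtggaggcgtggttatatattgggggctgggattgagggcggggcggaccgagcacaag
Myo10, chr15:25752956-25753205, plus strand: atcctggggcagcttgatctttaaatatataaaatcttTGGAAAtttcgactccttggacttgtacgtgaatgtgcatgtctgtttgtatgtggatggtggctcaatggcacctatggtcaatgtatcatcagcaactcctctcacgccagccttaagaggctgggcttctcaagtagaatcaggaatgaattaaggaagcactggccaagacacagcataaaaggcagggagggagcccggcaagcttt
Gsn, chr2:35282130-35282379, plus strand: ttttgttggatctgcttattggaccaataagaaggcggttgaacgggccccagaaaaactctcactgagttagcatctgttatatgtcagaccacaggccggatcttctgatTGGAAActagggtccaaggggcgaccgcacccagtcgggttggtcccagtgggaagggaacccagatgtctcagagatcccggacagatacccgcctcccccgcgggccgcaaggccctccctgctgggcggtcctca
The motifs were TGANTCA (AP-1), CACGTG (the E-box bound by MITF), TGGAAA (NFAT) and the CArG box bound by SRF, which do not overlap in these windows. TGGAAA was found 138 bases before the shown start of Gsn and 212 bases before the downstream start of Myo10, and 18.6% of all 32851 RefSeq promoter windows of this length hold it. A CArG box was found 227 bases before the start of Vcl, where 1.47% of all windows hold one. TGANTCA, present in 6.75% of all windows, and CACGTG, present in 6.02%, were in none of the 9 windows. The Src window is 82.8% G and C, against 62.8% and 46.0% at the Myo10 starts, and the deposited counts are per gene and do not show which start was used.

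The other 7 genes had smaller changes. Pxn, whose product is a scaffold for podosome kinases, rose in Bap1flox cells from 316, 268 and 274 normalised CPM in BMMs to 354, 419 and 416 in preOCs, a log2 fold change of 0.47 ± 0.15 (edgeR, adjusted p = 0.019). In Bap1LysM cells Pxn was at 325, 298 and 323 in BMMs and at 387 and 580 in preOCs, a log2 fold change of 0.62 ± 0.16 (edgeR, adjusted p = 0.013). The Pxn groups did not overlap in either genotype, but the Bap1flox call was lost without BMM replicate 2 or 3 or preOC replicate 2 or 3 (adjusted p up to 0.065 in edgeR), and the Bap1LysM log2 fold change was 0.30 (adjusted p = 0.15) without Bap1LysM OC 2 and 0.88 without the library labelled Bap1LysM OC 1.

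Fermt3 fell in both genotypes in edgeR, although the Bap1LysM call depended on the fit. Its normalised CPM in Bap1flox cells was 671, 620 and 610 in BMMs and 465, 476 and 463 in preOCs, with a log2 fold change of -0.43 ± 0.08 (edgeR, adjusted p = 0.0016). In Bap1LysM cells it was 683, 630 and 726 in BMMs and 541 and 549 in preOCs, with a log2 fold change of -0.32 ± 0.09 (edgeR, adjusted p = 0.024). No preOC library reached the lowest BMM library. The Bap1LysM call for Fermt3 was lost without Bap1LysM BMM 3 (adjusted p = 0.070), without Bap1LysM OC 2 (0.063) and without both Bap1LysM libraries numbered 1 (0.064). It was also lost with voomWithQualityWeights (0.091), without a filter on low counts (0.070) and with the Bap1LysM libraries alone (0.19).

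Gsn had lower means after RANKL in both genotypes, and which genotype passed the threshold depended on the fit. Bap1flox BMMs had 763, 786 and 734 normalised CPM of Gsn and preOCs 707, 629 and 571, a log2 fold change of -0.26 ± 0.11 (edgeR, adjusted p = 0.073). Bap1LysM BMMs had 608, 723 and 613 and preOCs 503 and 441, a log2 fold change of -0.46 ± 0.13 (edgeR, adjusted p = 0.017). The groups of replicates 1 to 3 did not overlap in either genotype. The Bap1LysM call for Gsn was lost without Bap1LysM OC 2 (adjusted p = 0.11), and the Bap1flox comparison passed without Bap1flox OC 1 (0.040) or without Bap1LysM BMM 2 (0.043). With voomWithQualityWeights and with the libraries of each genotype alone, Gsn passed in Bap1flox cells (adjusted p = 0.00195 and 0.032) and missed the threshold in Bap1LysM cells (0.083 and 0.11), and with DESeq2 and all 17 libraries it passed in both. The interaction for Gsn was -0.20 ± 0.17 (adjusted p = 0.65). Without both Bap1LysM libraries numbered 1 the Bap1LysM log2 fold change was -0.60.

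Cttn, whose product binds branched actin in the podosome core, had a wide spread in BMMs. Its normalised CPM was 12.3, 41.7 and 42.1 in Bap1flox BMMs and 35.1, 64.4 and 70.3 in preOCs, so replicate 1 was lowest in both groups and the ranges overlapped. The log2 fold change was 0.83 ± 0.50 (edgeR, adjusted p = 0.19), and it was 0.94 ± 0.20 (adjusted p = 0.0030) with the replicate number as a block, that is, comparing preOC with BMM within each replicate number. In Bap1LysM cells Cttn was at 22.9, 34.9 and 42.1 in BMMs and at 49.0 and 131 in preOCs, and the log2 fold change of 1.43 ± 0.55 missed the threshold (edgeR, adjusted p = 0.063). It passed without Bap1flox BMM 1 (adjusted p = 0.025) and without both Bap1LysM libraries numbered 1 (1.77, adjusted p = 0.050). It also passed with DESeq2 (1.41, adjusted p = 0.021), without a filter on low counts (adjusted p = 0.039) and with all 17 libraries (1.49, adjusted p = 0.0081). Without the library labelled Bap1LysM OC 1 it was 1.98 (adjusted p = 0.021), and without Bap1LysM OC 2 it was 0.56 (adjusted p = 0.55).

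Vcl, whose product reinforces the link between talin and actin, had the same low replicate 1. Normalised CPM was 35.5, 56.8 and 64.3 in Bap1flox BMMs and 55.9, 68.2 and 73.8 in preOCs, and the log2 fold change was 0.34 ± 0.25 (edgeR, adjusted p = 0.28), or 0.38 ± 0.10 (adjusted p = 0.012) with the replicate block. In Bap1LysM cells the Vcl values were 26.5, 40.0 and 40.1 in BMMs and 41.7 and 66.5 in preOCs, a log2 fold change of 0.61 ± 0.28 (edgeR, adjusted p = 0.12). It was 0.62 (edgeR, adjusted p = 0.031) with all 17 libraries. Without the library labelled Bap1LysM OC 1 it was 0.90, and without Bap1LysM OC 2 it was 0.23. The 14 stromal cell markers moved with replicate number in the same way: they summed to 982 CPM in Bap1flox BMM 1 and 648 CPM in the library labelled Bap1LysM BMM 1, against 4259 and 4711 CPM in the other Bap1flox and 1794 and 2242 CPM in the other Bap1LysM BMM libraries, while the stromal markers Dcn, Lum and Thy1 were under 1 CPM in all BMMs. Their part in the Cttn and Vcl values was not tested.

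Ptk2b and Tln1 were not called by edgeR in either genotype, while voomWithQualityWeights called both in Bap1flox cells (-0.32, adjusted p = 0.021 for Ptk2b and 0.18, adjusted p = 0.0036 for Tln1). Ptk2b had 330, 248 and 236 normalised CPM in Bap1flox BMMs and 243, 195 and 187 in preOCs, a log2 fold change of -0.38 ± 0.24 (edgeR, adjusted p = 0.20), or -0.37 ± 0.12 (adjusted p = 0.021) with the replicate block. In Bap1LysM cells Ptk2b was at 401, 311 and 270 in BMMs and at 427 and 234 in preOCs, so the library labelled Bap1LysM OC 1 was above all BMMs and Bap1LysM OC 2 below them, and the log2 fold change was 0.01 ± 0.26. That value rests on both preOC libraries, since it was -0.49 without the library labelled Bap1LysM OC 1, 0.39 without Bap1LysM OC 2 and -0.31 without both libraries numbered 1, with none of these called in edgeR. Tln1 stayed between 1122 and 1413 normalised CPM in all 11 libraries of replicates 1 to 3, with log2 fold changes of 0.14 ± 0.09 in Bap1flox and 0.01 ± 0.10 in Bap1LysM cells (0.030 without both libraries numbered 1).

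In Bap1LysM cells 6 of the 10 genes were called after RANKL, 4 higher and 2 lower, where 38.0% of all genes passed (20.8% higher and 17.2% lower). The BMM and preOC ranges did not overlap for 8 of the 10 genes, beside 54.9% of all genes. The count was 3 (Src, Myo1d and Myo10) without Bap1LysM OC 2, 8 without the library labelled Bap1LysM OC 1, and 6 without both Bap1LysM libraries numbered 1, in fits that called 3171, 6199 and 6041 of all 14106 genes. Whether the response to RANKL differed between genotypes was tested as an interaction over the same 11 libraries. None of the 10 genes passed, and none had an unadjusted p under 0.05 in edgeR, voomWithQualityWeights or DESeq2. Over all 14106 genes edgeR called 0.0%, with 1751 genes at an unadjusted p under 0.05, voomWithQualityWeights called none with 910 at an unadjusted p under 0.05, and DESeq2 called 111 genes. The largest interaction estimates were 0.67 ± 0.50 for Myo1d (adjusted p = 0.61), 0.61 ± 0.74 for Cttn (adjusted p = 0.77) and 0.46 ± 0.46 for Src (adjusted p = 0.71) on the log2 scale. Without Bap1LysM OC 2 the estimates for Myo1d, Cttn and Src were -0.017, -0.27 and -0.19, and without the library labelled Bap1LysM OC 1 they were 1.13, 1.1496 and 0.91, again with none called.

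**Figure D2:**
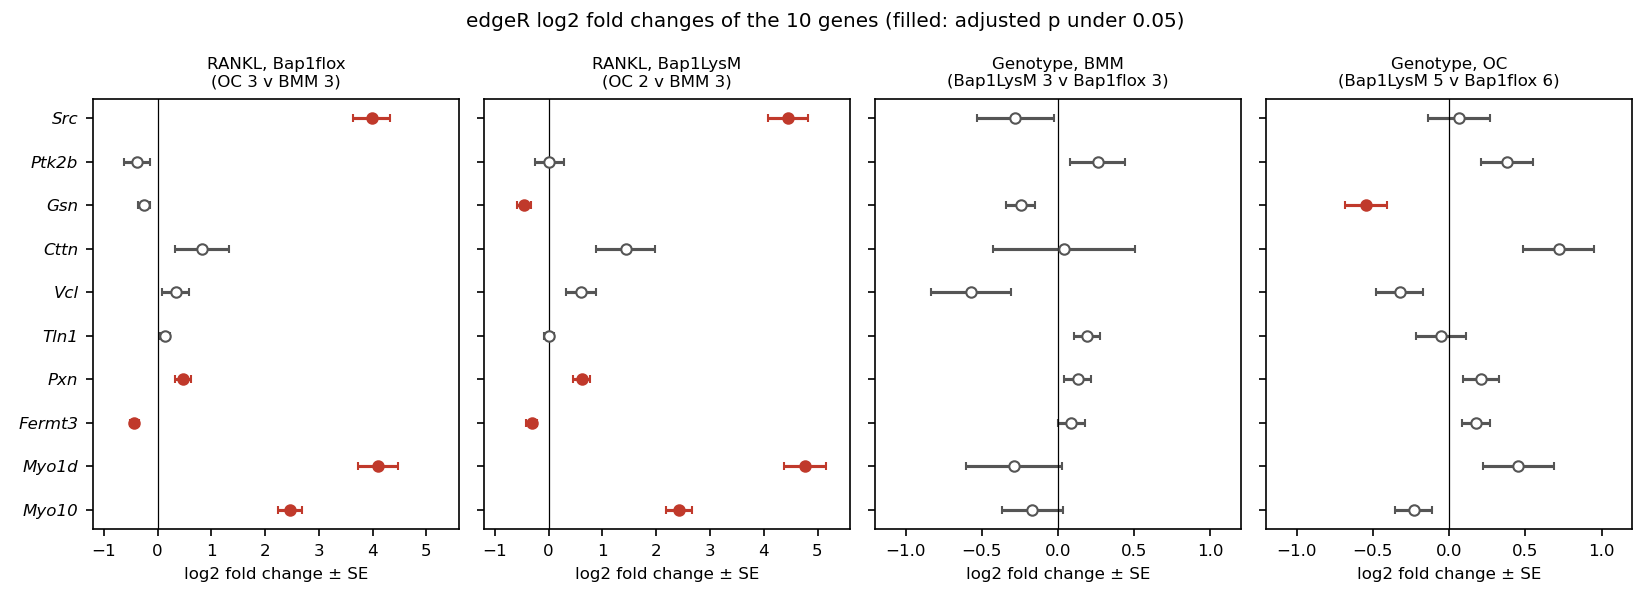
edgeR log2 fold changes with their SE (x axis) of the 10 genes (y axis) for RANKL in each genotype and for Bap1LysM against Bap1flox in BMMs and in preOCs; filled points passed an adjusted p of 0.05. The x axis of the RANKL panels is wider, since Src and Myo1d reach 4.45 and 4.76 there in Bap1LysM cells, whereas no genotype difference of the 10 genes reaches 1.

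Between the genotypes, preOCs differed in 1 of the 10 genes at an adjusted p under 0.05, Gsn, which was lower in Bap1LysM preOCs. Of 12929 genes tested, 15.8% were called (7.12% higher and 8.68% lower), so 1 in 10 is below the background share. With upper-quartile factors the split of all calls was 699 higher and 1403 lower, against 921 higher and 1122 lower with TMM factors. The median log2 fold change of the 10 genes was 0.12, beside -0.01 over all genes tested. Cttn was close to the threshold on the other side, and the remaining 8 genes lay further from it.

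Gsn (ENSMUSG00000026879, GRCm38 chr2:35279663-35307892, plus strand) had 465.7, 562 and 707 normalised CPM as the lowest, the median and the highest of 6 Bap1flox preOC libraries. Bap1LysM preOC libraries 1, 2, 4, 5 and 6 had 503, 441, 376, 365 and 339. Over all libraries the ranges overlapped through the library labelled Bap1LysM OC 1, which lay above Bap1flox OC 6, whereas within replicates 1 to 3 and within replicates 4 to 6 every Bap1LysM library was below every Bap1flox library. The edgeR log2 fold change was -0.55 ± 0.14 (adjusted p = 0.022). With 32.2% of all genes called in replicates 4 to 6 alone and none in replicates 1 to 3 alone, it was -0.45 ± 0.14 in replicates 1 to 3 (3 against 2 libraries, adjusted p = 0.22 in edgeR) and -0.57 ± 0.09 in replicates 4 to 6 (3 against 3, adjusted p = 0.0021). With the library set as a term, where 33.6% of all genes passed, it was -0.51 ± 0.08 (adjusted p = 0.00065), and without the library labelled Bap1LysM OC 1 it was -0.65 (adjusted p = 0.0057). The call was lost without Bap1LysM OC 4, OC 5 or OC 6 (adjusted p = 0.054 to 0.067).

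Cttn (ENSMUSG00000031078, GRCm38 chr7:144435733-144471009, minus strand) had 35.1, 55.9 and 70.3 normalised CPM as the lowest, the median and the highest Bap1flox preOC value. Bap1LysM preOC libraries 1, 2, 4, 5 and 6 had 49.0, 131, 92.1, 85.6 and 102. The library labelled Bap1LysM OC 1 lay inside the Bap1flox range and the other 4 lay above all Bap1flox libraries. The log2 fold change was 0.72 ± 0.23 (edgeR, adjusted p = 0.056). It was 0.63 ± 0.47 (adjusted p = 0.51) in replicates 1 to 3 and 0.80 ± 0.11 (adjusted p = 0.0012) in replicates 4 to 6. With the library set as a term it was 0.73 ± 0.23 (adjusted p = 0.032), with the replicate block, where 32.8% of all genes passed, 0.78 ± 0.10 (adjusted p = 0.0026), and without the library labelled Bap1LysM OC 1 it was 0.87 ± 0.19 (adjusted p = 0.0091).

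**Figure D3:**
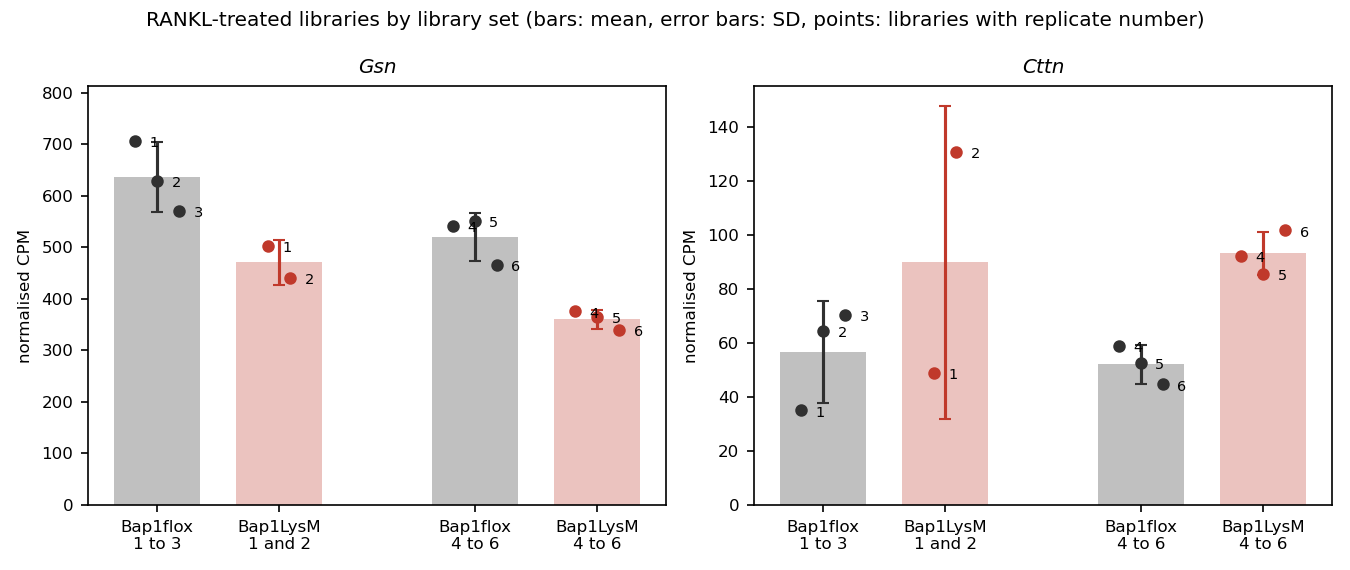
Normalised CPM (y axis, from 0) of Gsn and Cttn in preOC libraries by genotype and library set (x axis); bars are means, error bars SD and points libraries with their replicate number. In replicates 4 to 6 the genotypes do not overlap for either gene, and in replicates 1 to 3 Cttn of the library labelled Bap1LysM OC 1 (49.0) lies among the Bap1flox values.

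Within replicates 1 to 3 the genotype ranges did not overlap for Gsn and Fermt3, 2 of the 10 genes, where 38.8% of all genes tested had ranges that did not overlap. Within replicates 4 to 6 they did not overlap for Gsn, Cttn and Myo10, 3 of the 10 genes beside 48.7% of all genes, and over all 11 preOC libraries for none of the 10 genes beside 9.51% of all genes. Myo1d had 111, 154 and 243 normalised CPM as the lowest, the median and the highest Bap1flox preOC value and 116, 257, 253, 235 and 255 in Bap1LysM preOC libraries 1, 2, 4, 5 and 6. The library labelled Bap1LysM OC 1 was near the Bap1flox minimum and the other 4 were near or above the Bap1flox maximum. The Myo1d log2 fold change of 0.46 ± 0.23 missed the threshold (edgeR, adjusted p = 0.21), and without the library labelled Bap1LysM OC 1 it was 0.61 ± 0.19 (adjusted p = 0.038).

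Myo10 went the other way, with 209, 269 and 307 normalised CPM as the lowest, the median and the highest Bap1flox preOC value and 169, 270, 232, 231 and 248 in Bap1LysM preOC libraries 1, 2, 4, 5 and 6. These ranges overlapped and the log2 fold change was -0.23 ± 0.12 (edgeR, adjusted p = 0.23), or -0.27 ± 0.09 (adjusted p = 0.049) in replicates 4 to 6 alone, and it was -0.15 without the library labelled Bap1LysM OC 1. Vcl had a log2 fold change of -0.32 ± 0.16 (adjusted p = 0.18), or -0.47 (adjusted p = 0.033) without Bap1LysM OC 2 and -0.28 without the library labelled Bap1LysM OC 1. Its preOC range was 45.1 to 73.8 normalised CPM in Bap1flox and 41.7 to 66.5 in Bap1LysM libraries.

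Ptk2b was at 187, 203 and 243 normalised CPM as the lowest, the median and the highest Bap1flox preOC value and at 427, 234, 246, 262 and 213 in Bap1LysM preOC libraries 1, 2, 4, 5 and 6. Its log2 fold change was 0.38 ± 0.17 (edgeR, adjusted p = 0.16), and without the library labelled Bap1LysM OC 1, which had 427, it was 0.16 ± 0.09 (adjusted p = 0.25). Pxn (0.21 ± 0.12, adjusted p = 0.26) and Fermt3 (0.18 ± 0.09, adjusted p = 0.22) missed the threshold in edgeR. Both passed with voomWithQualityWeights (adjusted p = 0.035 for Pxn and 0.045 for Fermt3), Fermt3 also with all 17 libraries (0.22, adjusted p = 0.026) and Pxn also with the library set as a term and the library labelled Bap1LysM OC 1 left out (0.29, adjusted p = 0.049). Src (0.06 ± 0.20, adjusted p = 0.86) and Tln1 (-0.05 ± 0.16, adjusted p = 0.85) had the estimates nearest 0, and the approximate 95% intervals were -0.34 to 0.46 for Src and -0.37 to 0.26 for Tln1 on the log2 scale. The Tln1 interval includes the spread between library sets. In preOCs of both genotypes Tln1 was at 1236 to 1391 normalised CPM in replicates 1 to 3 and at 899 to 976 in replicates 4 to 6. Within these sets the Bap1LysM mean was 1.05 and 0.985 times the Bap1flox mean. Without the library labelled Bap1LysM OC 1 the log2 fold changes were 0.27 for Pxn, 0.16 for Fermt3, 0.15 for Src and -0.12 for Tln1, with none called in edgeR without the set term. With voomWithQualityWeights, which gives less weight to libraries that deviate, 8 of the 10 genes passed, where 54.9% of all genes did.

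Markers of other cells and the mitochondrial share varied among the preOC libraries too. The 12 neutrophil markers summed to 103 to 257 CPM in Bap1flox and to 194 to 625.1 CPM in Bap1LysM preOCs, with Ly6g under 1 CPM in every library. The 12 macrophage markers summed to 4388 to 5111 CPM in Bap1flox and 4212 to 5850 CPM in Bap1LysM preOCs. Csf1r, the receptor of M-CSF, was at 1187 to 1448 normalised CPM in Bap1flox and 1450 to 2143 in Bap1LysM preOCs. Its ranges missed each other by a narrow margin, as did not overlap those of 9.51% of all genes tested. The macrophage markers Adgre1 (359 to 566 and 276 to 1007) and Itgam (574 to 896 and 507 to 899) overlapped between Bap1flox and Bap1LysM preOCs. The stromal sums followed the library set more than the genotype. They were 2022 to 3335 CPM in Bap1flox and 640 and 2003 CPM in Bap1LysM preOCs of replicates 1 to 3, and 325 to 565 CPM in Bap1flox and 171 to 688 CPM in Bap1LysM preOCs of replicates 4 to 6, with Lum and Thy1 under 1 CPM in every preOC library. Mitochondrial genes took 0.481% to 1.019% of counts in Bap1flox and 1.021% and 1.074% in Bap1LysM preOCs of replicates 1 to 3, and 2.364% to 3.639% and 3.383% to 5.264% in replicates 4 to 6. Their part in the Gsn and Cttn differences was not tested.

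In BMMs, before RANKL, none of the 10 genes was called between genotypes by edgeR, voomWithQualityWeights or DESeq2, and 1 of the 10, Gsn, had an unadjusted p under 0.05 in edgeR. Of 13028 genes tested, 5.32% were called. The Gsn values of the BMM libraries given above did not overlap between genotypes, and neither did those of Tln1, 2 of the 10 genes beside 34.0% of all genes, with log2 fold changes of -0.25 ± 0.10 for Gsn (adjusted p = 0.17) and 0.19 ± 0.09 for Tln1 (adjusted p = 0.22) in edgeR. Vcl had the largest difference, -0.57 ± 0.26 (edgeR, adjusted p = 0.22), and passed with the replicate block at -0.55 ± 0.09 (adjusted p = 0.020), a fit in which 16.2% of all genes did. Each Bap1LysM BMM library had less Vcl than the Bap1flox BMM library with the same number, and the stromal marker sums were also lower in each of these pairs (648 against 982, 1794 against 4259 and 2242 against 4711 CPM), whose part in the Vcl difference was not tested. Without the library labelled Bap1LysM BMM 1 the log2 fold changes were -0.20 for Gsn, 0.23 for Tln1 and -0.40 for Vcl, with none called in edgeR.

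Vcl, Tln1 and Fermt3 overlap an expressed gene on the opposite strand, and whether counting used strand is not given in the sources used here. The partner of Vcl is Ap3m1, with a median count of 4070 per library, that of Tln1 is Creb3, with 2183, and that of Fermt3 is Trpt1, with 93. Only gene bounds were compared, not exons, and counted reads are unambiguous, so reads that fit both genes would be left out. Whether the overlap changed the counts of these 3 genes is not shown, and small differences of them stay uncertain. Cttn, Pxn, Myo1d and Myo10 overlap genes on their own strand with median counts of 0 to 12 per library. Src, Ptk2b and Gsn overlap no other gene of the annotation.

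Across all 17 libraries the patterns of the 10 genes differed by degrees, and no grouping was tested. Pearson correlations of log2 CPM (prior count 2) over the 17 libraries, which share the RANKL contrast, were 0.99 for Myo1d and Myo10, 0.98 for Src and Myo10 and 0.98 for Src and Myo1d, and the lowest was -0.88 for Fermt3 and Myo10. The genes with a pattern most like Src were Mst1r (0.995), Siglec15 (0.995) and Spns2 (0.993). For Myo1d they were Calcr (0.993), the calcitonin receptor of osteoclasts, Rab38 (0.991) and Mycl (0.991), and for Myo10 they included Jdp2 (0.996) and Rai14 (0.994). The pattern most like Gsn was that of Atp8b2 (0.980), and the one most like Cttn was that of Elfn1 (0.983). Tln1 was most like Prrc2a (0.968), Fermt3 most like Lrrc25 (0.978), Pxn most like Cant1 (0.953), Vcl most like Pacsin3 (0.951) and Ptk2b most like Calhm2 (0.927). These are descriptions of likeness over 17 libraries that fall into 2 stages.

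Another 144 podosome genes show how the rest of the machinery behaved. In Bap1flox cells 141 were tested for the response to RANKL, and 34 rose and 40 fell, beside 28.7% and 28.0% of all genes, with a median log2 fold change of -0.10 beside -0.03 over all genes. The integrin and actin linker list had 7 higher and 2 lower of 16 genes. It held Itgb3 and Itgav, which together form the vitronectin receptor of osteoclast podosomes. Itgb3 rose from 10.3 ± 1.27 to 81.0 ± 16.4 normalised CPM (SD, n = 3 each; log2 fold change 2.98, edgeR, adjusted p = 9.0e-06). Itgav rose from 77.8 ± 4.08 to 358 ± 47.2 normalised CPM (log2 fold change 2.20, adjusted p = 0.00011). Zyx, the gene of the focal adhesion protein zyxin, fell from 431 ± 28.3 to 148 ± 2.603 normalised CPM (log2 fold change -1.53, adjusted p = 2.2e-05).

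Among genes that form, bundle or cut filaments 12 rose and 9 fell of 37. Scin, which encodes the gelsolin relative scinderin, was at 0.194 ± 0.0833 normalised CPM in Bap1flox BMMs and 94.0 ± 8.75 in preOCs, a log2 fold change of 8.89 (edgeR, adjusted p = 2.7e-06) whose size depends on the low BMM level. Svil, the gene of the gelsolin-family protein supervillin, fell from 77.9 ± 5.83 to 26.6 ± 0.675 normalised CPM (log2 fold change -1.55, adjusted p = 1.2e-05). The kinase, phosphatase and ubiquitin ligase list had 2 higher and 5 lower of 14. The Src-family kinase gene Fgr rose from 9.004 ± 0.391 to 48.7 ± 6.42 normalised CPM (log2 fold change 2.44, adjusted p = 1.2e-05), while Lyn, of the same family, fell from 231 ± 11.5 to 119 ± 9.20 (log2 fold change -0.96, adjusted p = 0.00019).

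Of the other myosins 4 rose and 8 fell of 17. Myo1e, a class I myosin like Myo1d, rose (log2 fold change 2.41, edgeR, adjusted p = 0.00011), and Myo5a fell (-1.50, adjusted p = 2.2e-05). Dock5, a Rac exchange factor needed for osteoclast podosome belts, rose from 33.4 ± 7.93 normalised CPM in BMMs to 321 ± 53.3 in preOCs (log2 fold change 3.27, adjusted p = 2.6e-05). The adaptors and scaffolds had 3 higher and 4 lower of 17, with Git1 at a log2 fold change of 1.38 (adjusted p = 0.00021). The Arp2/3 branched actin core had 3 higher and 4 lower of 17, with a median of -0.15. In Bap1LysM cells 31 of the 141 genes rose and 39 fell, beside 20.8% and 17.2% of all genes, with Scin (7.27), Dock5 (3.70), Fgr (3.51) and Itgb3 (3.11) again at high log2 fold changes.

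**Figure D4:**
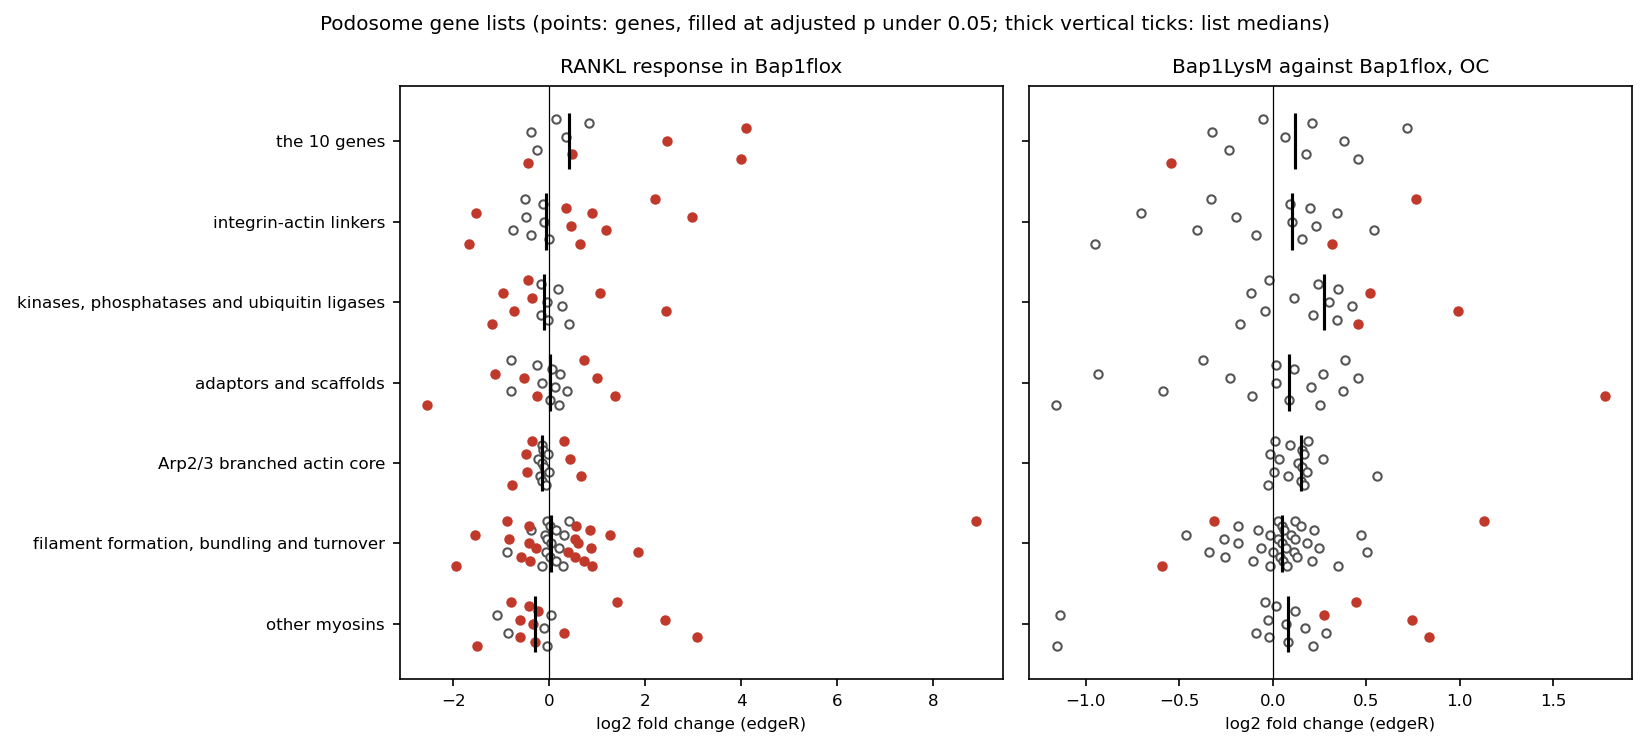
edgeR log2 fold changes (x axis) of the 10 genes and of 6 lists of other podosome genes (y axis), for RANKL in Bap1flox cells and for Bap1LysM against Bap1flox in preOCs; points are genes, filled at an adjusted p under 0.05, and thick ticks list medians. Scin lies apart at 8.89 on the left, and on the right Sorbs3 lies farthest above 0 among the filled points, at 1.77.

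Between preOC genotypes 16 of 140 other podosome genes tested were higher and 3 lower in Bap1LysM, beside 7.12% and 8.68% of all genes. Their median log2 fold change was 0.11, beside -0.01 over all genes. In the same libraries the neutrophil marker sums (103 to 257 CPM in Bap1flox and 194 to 625.1 CPM in Bap1LysM, which overlap) were higher in median in Bap1LysM. Csf1r was also higher there, with a narrow gap between the ranges. The part of either in these differences was not tested. Of the other myosins 4 were higher of 17 and of the kinase list 3 of 14. The linkers had 2 higher of 15, the adaptors 1 higher of 17, the filament list 1 higher and 2 lower of 37 and the Arp2/3 core none of 17. Fgr was at 56.1 ± 9.62 normalised CPM in 6 Bap1flox and 114 ± 19.6 in 5 Bap1LysM preOC libraries, a log2 fold change of 0.99 ± 0.14 (edgeR, adjusted p = 0.0012). Sorbs3, the gene of the vinculin-binding adaptor vinexin, had the largest difference, 1.77 ± 0.39 (adjusted p = 0.010), from 7.75 ± 2.57 to 27.3 ± 15.9 normalised CPM. In replicates 1 to 3 alone Sorbs3 was at 7.04 ± 2.35 in 3 Bap1flox and 11.2 ± 3.72 in 2 Bap1LysM libraries, so most of its difference lay in replicates 4 to 6. Parvg (0.77, adjusted p = 0.0051), which encodes the integrin-linked adaptor gamma-parvin, was also higher.

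Among the Rac regulators Dock2 (log2 fold change 0.64, edgeR, adjusted p = 0.015) and Vav2 (0.60, adjusted p = 0.0096) were higher, and Arhgap24, which encodes a Rac-inactivating protein, was lower (-0.95, adjusted p = 0.022). Among myosins, Myo6 (0.83, adjusted p = 0.0064) and Myo5a (0.74, adjusted p = 0.0089) were higher. Like Gsn, the gelsolin-family gene Svil was lower (-0.59, adjusted p = 0.0084), at 30.2 ± 5.13 normalised CPM in Bap1flox and 20.5 ± 2.41 in Bap1LysM preOCs. Tmsb4x, the gene of the monomeric actin-binding peptide thymosin beta 4, was higher in Bap1LysM preOCs (1.13, adjusted p = 0.0015) and in Bap1LysM BMMs (1.16, adjusted p = 0.010), and its reads can be shared with near-identical copies. Without the library labelled Bap1LysM OC 1 all 10 named genes, Fgr, Sorbs3 and Parvg included, kept their call. In replicates 1 to 3 alone none of these 10 genes passed, as no gene did in that fit of 3 against 2 libraries, where 2289 genes had an unadjusted p under 0.05, and Arhgap24 also lost its call without Bap1LysM OC 4, OC 5 or OC 6.

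In BMMs 5 of 140 other podosome genes were higher and 2 lower in Bap1LysM, beside 1.31% and 4.01% of all genes. Ptk2, which encodes the focal adhesion kinase related to Pyk2, was at 22.0 ± 4.50 normalised CPM in Bap1flox and 37.2 ± 2.23 in Bap1LysM BMMs (log2 fold change 0.74, edgeR, adjusted p = 0.049). Fmnl2, the gene of a formin, was at 12.6 ± 0.812 and 6.91 ± 0.938 (log2 fold change -0.88, adjusted p = 0.026). Ptk2 lost its call when any of the 6 BMM libraries was left out, Fmnl2 when any Bap1flox BMM library or Bap1LysM BMM 2 was, and Tmsb4x without Bap1flox BMM 2 or BMM 3. Without the library labelled Bap1LysM BMM 1 Fmnl2 and Tmsb4x kept their call.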

How the data were processed

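Reads were aligned by the authors to the Ensembl mouse assembly (GRCm38) with STAR 2.5.1a and assigned to genes with featureCounts 1.4.6-p5, and the deposited counts are uniquely aligned, unambiguous reads per gene. The deposited CPM values are these counts scaled by library total, and the deposited RPKM values are in addition divided by exonic length. The strand setting of counting is not given in the sources used here. Total counts were 37967542 to 61369441 per library, and the number of libraries limits the precision.

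The counts were tested with edgeR 4.0.16 (quasi-likelihood, TMM factors) in R 4.3.3, without 355 ribosomal RNA genes and with genes kept above 1 CPM in at least 4 of 11 libraries (preOC genotypes), 2 of 6 (BMM genotypes) or 1 of 11 (RANKL and the interaction). p-values were Benjamini-Hochberg adjusted over all genes tested, with a threshold of 0.05. Errors of log2 fold changes are SE, and intervals are approximate. Symbols were matched for 97.5% of 41388 genes. Scripts were tested on simulated data before use. The 10 genes and the lists were chosen with earlier results of these data known. Other podosome genes were named if past the threshold with a fold change of at least 1.5, at most 3 in each direction per list.

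Same-numbered libraries deviated together with correlations of 0.34 to 0.69 in preOCs, 0.30 to 0.49 in BMMs and 0.22 to 0.36 across RANKL in Bap1flox cells. All were over 0.1, and by this rule the numbers were used as a block. In preOCs these correlations follow the library sets, which were read from the form of the deposited file names, since within replicates 4 to 6 they were -0.14 to 0.01. Libraries with different numbers ranged from -0.77 (Bap1flox OC 6 with Bap1LysM OC 2) to values as high. Examples are 0.63 for Bap1flox OC 4 with Bap1LysM OC 5 and 0.22 for Bap1flox BMM 2 with Bap1LysM BMM 3. Another is 0.21 for Bap1flox BMM 3 with Bap1flox OC 2. The rule therefore does not show that same-numbered libraries are true pairs. In Bap1LysM cells only 2 pairs span RANKL, and these were not taken as paired.

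Alternatives were voomWithQualityWeights (limma 3.58.1, the study's method), DESeq2 1.42.0, edgeR with upper-quartile or RLE factors, no filter or a stricter one, the replicate block, the library set as a term or split, all 17 libraries together, each genotype alone, and leaving out each library. Another, the set term without the library labelled Bap1LysM OC 1, was chosen after seeing the data. Figures were drawn with matplotlib 3.10.9. Isoforms were not analysed here, and some genes and 1 list are not reported here.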

Additional observations from a re-analysis of the deposited data

Results flagged for a closer look

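Of 20 groups of 5 or 6 libraries examined for a value far from the rest (Dixon's test at the 95% level), 3 stood out, where chance gives about 1 in 20. All 3 lay in Bap1LysM preOCs. Ptk2b was at 427 normalised CPM in the library labelled Bap1LysM OC 1 against 213 to 262 in the other 4, a gap of 0.771 of the range. Myo1d was at 116 normalised CPM in the same library against 235 to 257 in the others, a gap of 0.839 of the range. Fermt3 was at 428 normalised CPM in Bap1LysM OC 6 against 541 to 559 in the others, a gap of 0.862 of the range. The library labelled Bap1LysM OC 1 is also the preOC library with Lyz2 at 75.07% of the Bap1flox mean and with the lowest sum of osteoclast markers, 7696 CPM, and the part of either in these values was not tested.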

How the results depend on the processing

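Of 980 values of the 10 genes under the alternatives, 876 kept their direction and side of the threshold, 43 passed it, 19 lost it and 42 changed sign, and the cause was not tested. In preOCs, where Gsn alone was called, 8 genes passed with voomWithQualityWeights, 2 with DESeq2, RLE factors, the replicate block, the set term or all 17 libraries (with the last Gsn and Fermt3), 0 in replicates 1 to 3 alone, 3 in replicates 4 to 6 alone, 4 with the set term without the library labelled Bap1LysM OC 1 (Gsn, Cttn, Pxn and Myo1d), and 0 to 3 with a library left out (0 without Bap1LysM OC 4, OC 5 or OC 6). With the replicate block 1 gene (Vcl) passed in BMMs and 8 in the RANKL comparison of Bap1flox cells. There voomWithQualityWeights gave 9, in a fit that called 10559 of all 14106 genes. Leaving out a library gave 4 to 6, for example 4 without Bap1flox OC 2 (6883 of all genes called) and 6 without Bap1LysM BMM 2 (7931). In Bap1LysM cells 3 passed with their own libraries alone, and 3 to 8 with a library left out. The block there, with 2 pairs, gave 8 beside 40.0% of all genes, adding Cttn (1.53) and Vcl (0.71), and beside these and the calls given in the report the pairing changed no other call.

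None of the estimates that changed sign was called, with either sign. In preOCs Src was -0.065 with voomWithQualityWeights, and Tln1 0.018 with all 17 libraries and 0.043 in replicates 1 to 3. In BMMs Cttn was -0.26 with voomWithQualityWeights and -0.000649 with upper-quartile factors. For RANKL in Bap1LysM cells Ptk2b was -0.017 with voomWithQualityWeights, -0.0090 with DESeq2, -0.0089 with RLE factors, -0.00051 with upper-quartile factors, -0.12 with the block, -0.13 with all 17 libraries and -0.31 without both libraries numbered 1, and Tln1 was -0.0012 with voomWithQualityWeights, -0.0015 with the block, -0.015 with DESeq2 and RLE factors, -0.024 with all 17 libraries and -0.014 without a filter. The Myo10 interaction was 0.18 without both libraries numbered 1. With single libraries left out the ranges were, in preOCs, -0.17 to 0.15 (Src) and -0.16 to 0.018 (Tln1), in BMMs -0.35 to 0.29 (Cttn), for RANKL in Bap1LysM cells -0.49 to 0.39 (Ptk2b) and -0.057 to 0.069 (Tln1), and for the interaction -0.19 to 0.91 (Src), -0.11 to 0.76 (Ptk2b), -0.27 to 1.1496 (Cttn), -0.11 to 0.56 (Vcl), -0.18 to 0.41 (Pxn), -0.017 to 1.13 (Myo1d) and -0.41 to 0.27 (Myo10).

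Over all genes, 2043 preOC calls became 7099 with voomWithQualityWeights, 4236 with the block, 4527 with all 17 libraries, 4349 with the set term, 5042 with that term without the library labelled Bap1LysM OC 1, 4169 in replicates 4 to 6 and 0 in replicates 1 to 3, and 1112 (without Bap1LysM OC 4) to 3087 (without the library labelled Bap1LysM OC 1) with a library left out. The 693 BMM calls became 1772 with voomWithQualityWeights, 2065 with DESeq2, 2107 with the block, 1991 with all 17 libraries and 4 to 756 with a library left out. The 5363 RANKL calls in Bap1LysM cells became 2932 with voomWithQualityWeights, 2509 with their own libraries alone and 3171 without Bap1LysM OC 2. The interaction had 1440 calls with all 17 libraries and up to 116 with a library left out.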
